A study of Mus musculus with 4 samples.

Results

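The genes Cd72, Pax5, Pou2af1, Cd22 and Blk, all known for their roles in B cells, were followed in maps of Runx3 binding from CD8 T cells. All 5 were found among the 21887 protein-coding genes of the RefSeq table. A peak was counted at a gene when its summit, the position of its highest signal, lay in the gene span or within 10 kb of it. This gave 6 of 13166 peaks from chromatin immunoprecipitation (ChIP) and 9 of 15891 peaks from CUT&RUN, a method in which antibody-bound nuclease cuts out the DNA near its target. The genes were chosen by the peaks they carried in these same lists, by pileup and presence, so their counts and ranks are a description and carry no test. Cells came from the spleens of adult wild-type mice and were selected with magnetic beads against CD8a. The ChIP library was made from 50000000 frozen cells of 5 mice, and the CUT&RUN library from 150000 fresh cells of 1 mouse. The antiserum against Runx3, raised in rabbits and diluted 1 in 200, and the 12 PCR cycles were common to both. A whole cell extract served as the control of the ChIP list; a CUT&RUN library with normal rabbit serum was not analysed here.

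Runx3 is a DNA-binding protein of the RUNX family that CD8 T cells need to establish and keep their lineage, and it can both activate and silence genes. B cells are set on their own lineage by PAX5, which turns on B cell genes and shuts off those of other lineages. In mature B cells, the antigen receptor signals through Src family kinases such as BLK and is held back by inhibitory receptors such as CD22 and CD72. POU2AF1 (also called OBF-1 or BOB.1) is a coactivator of octamer-binding proteins that B cells need to form germinal centres. Peaks show where the antiserum enriched DNA and do not measure how strongly a gene is expressed.

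Both assays had 1 library, so no difference between them has a replicate check. After removal of duplicates, 9532996 fragments were left in ChIP and 14068364 in CUT&RUN. Pileup is the number of those fragments over a summit, given here with an exact 95% Poisson interval, which covers counting error only. Fold is the peak caller's ratio of pileup to expected background; fold, q and pileup are the authors' values for each peak, and they were compared within a list, not between assays. All 5 protein-coding marker genes of CD8 T cells (Cd8a, Cd8b1, Cd3d, Cd3e and Cd3g) had peaks in both lists. Over all protein-coding genes, 34.9% had a peak in both lists. The windows of Cd3d, Cd3e and Cd3g overlap, so these genes are not separate counts. At Cd3g the best peak of each list was the one inside Cd3d. Trac, a T cell receptor constant segment, had 5 peaks in each list. Of 7 B cell markers, 3 (42.9%) had a ChIP peak, near the 40.2% of all protein-coding genes, and 2 (28.6%) had a CUT&RUN peak, against 45.1% of all. The best peak at each of these markers lay nearer to another protein-coding gene.

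Peaks at a listed transcription start were found at Pou2af1 and at Tesk1, the neighbour whose span overlaps that of Cd72, and none was found at the listed start of Cd72. The promoter windows of these genes, from 250 bases before to 50 after the start (RefSeq, GRCm38.p6), are shown to place the signal on the sequence. Capitals mark the bases covered by a CUT&RUN peak, and each line runs 5′ to 3′ on the strand of the gene.
Pou2af1 (chr9:51213440-51213739, plus strand): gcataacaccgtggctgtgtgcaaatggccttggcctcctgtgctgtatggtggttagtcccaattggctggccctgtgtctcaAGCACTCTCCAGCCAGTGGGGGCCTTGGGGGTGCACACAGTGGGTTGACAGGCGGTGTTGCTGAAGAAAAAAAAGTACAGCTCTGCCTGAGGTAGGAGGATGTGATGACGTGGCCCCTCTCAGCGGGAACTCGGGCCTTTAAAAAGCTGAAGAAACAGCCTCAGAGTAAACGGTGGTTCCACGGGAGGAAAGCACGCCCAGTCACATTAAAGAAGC
Tesk1 (chr4:43442027-43442326, plus strand): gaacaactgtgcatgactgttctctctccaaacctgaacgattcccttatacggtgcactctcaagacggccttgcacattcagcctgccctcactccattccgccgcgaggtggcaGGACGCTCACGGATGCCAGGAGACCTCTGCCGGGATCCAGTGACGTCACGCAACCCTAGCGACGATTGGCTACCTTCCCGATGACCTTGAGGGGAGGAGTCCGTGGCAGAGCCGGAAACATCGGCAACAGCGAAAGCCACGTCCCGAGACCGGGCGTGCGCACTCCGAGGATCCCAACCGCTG
Cd72 (chr4:43454577-43454876, minus strand): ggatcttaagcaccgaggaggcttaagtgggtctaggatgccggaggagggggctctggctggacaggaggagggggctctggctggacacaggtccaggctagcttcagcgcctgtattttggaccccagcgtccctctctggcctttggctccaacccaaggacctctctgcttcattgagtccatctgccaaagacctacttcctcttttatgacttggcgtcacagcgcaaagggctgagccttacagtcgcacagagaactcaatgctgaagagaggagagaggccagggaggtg
A CUT&RUN peak covered 216 of the 300 bases at Pou2af1, up to the end of the window. At Tesk1 a CUT&RUN peak covered 183 bases and a ChIP peak 164. No base of the Cd72 window was in a peak of either list, and the same held for the windows of Pax5 and Cd22. The table had no promoter window for Blk. Among all 32851 promoter windows, 14.0% overlapped a ChIP peak and 16.7% a CUT&RUN peak. The RUNX core was searched as TGTGGT and TGCGGT on both strands. Neither form was found in the windows of Cd72, Pax5, Pou2af1, Cd22 or Tesk1. At least 1 of these forms stood in 22.4% of all windows, in 32.3% of those that overlapped a ChIP peak, in 27.8% of those that overlapped a CUT&RUN peak and in 21.2% of those with no peak, so most occupied windows also lacked both. TGCGGT stood in 16.9% of windows with a ChIP peak and 14.4% of those with a CUT&RUN peak, against 4.57% of those with none. TGTGGT did not stand more often in occupied windows: its shares were 17.3%, 14.8% and 17.3%, in the same order. TGCGGT holds a CG pair that TGTGGT lacks, and the windows were not matched for base composition. Whether the TGCGGT difference concerns RUNX sites was not tested.

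Runx3 peaks lay at 3 of the 5 genes in ChIP (Cd72, Pax5 and Pou2af1) and at all 5 in CUT&RUN. Over all protein-coding genes, 40.2% had a ChIP peak, 45.1% a CUT&RUN peak and 34.9% both within 10 kb. Since the genes were picked for these peaks, nothing is read from the comparison. All 6 ChIP peaks overlapped a CUT&RUN peak, as did 66.2% of the whole ChIP list. Of the 9 CUT&RUN peaks, 6 overlapped a ChIP peak, against 58.8% of the whole list. The paired summits lay 17 to 79 bp apart (median 41.5 bp, and 39.0 bp over all 9358 overlapping pairs). The heights centred near those of the full lists: the median pileup was 11 in ChIP and 26 in CUT&RUN, beside 12 and 25 for the full lists.

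**Figure D1:**
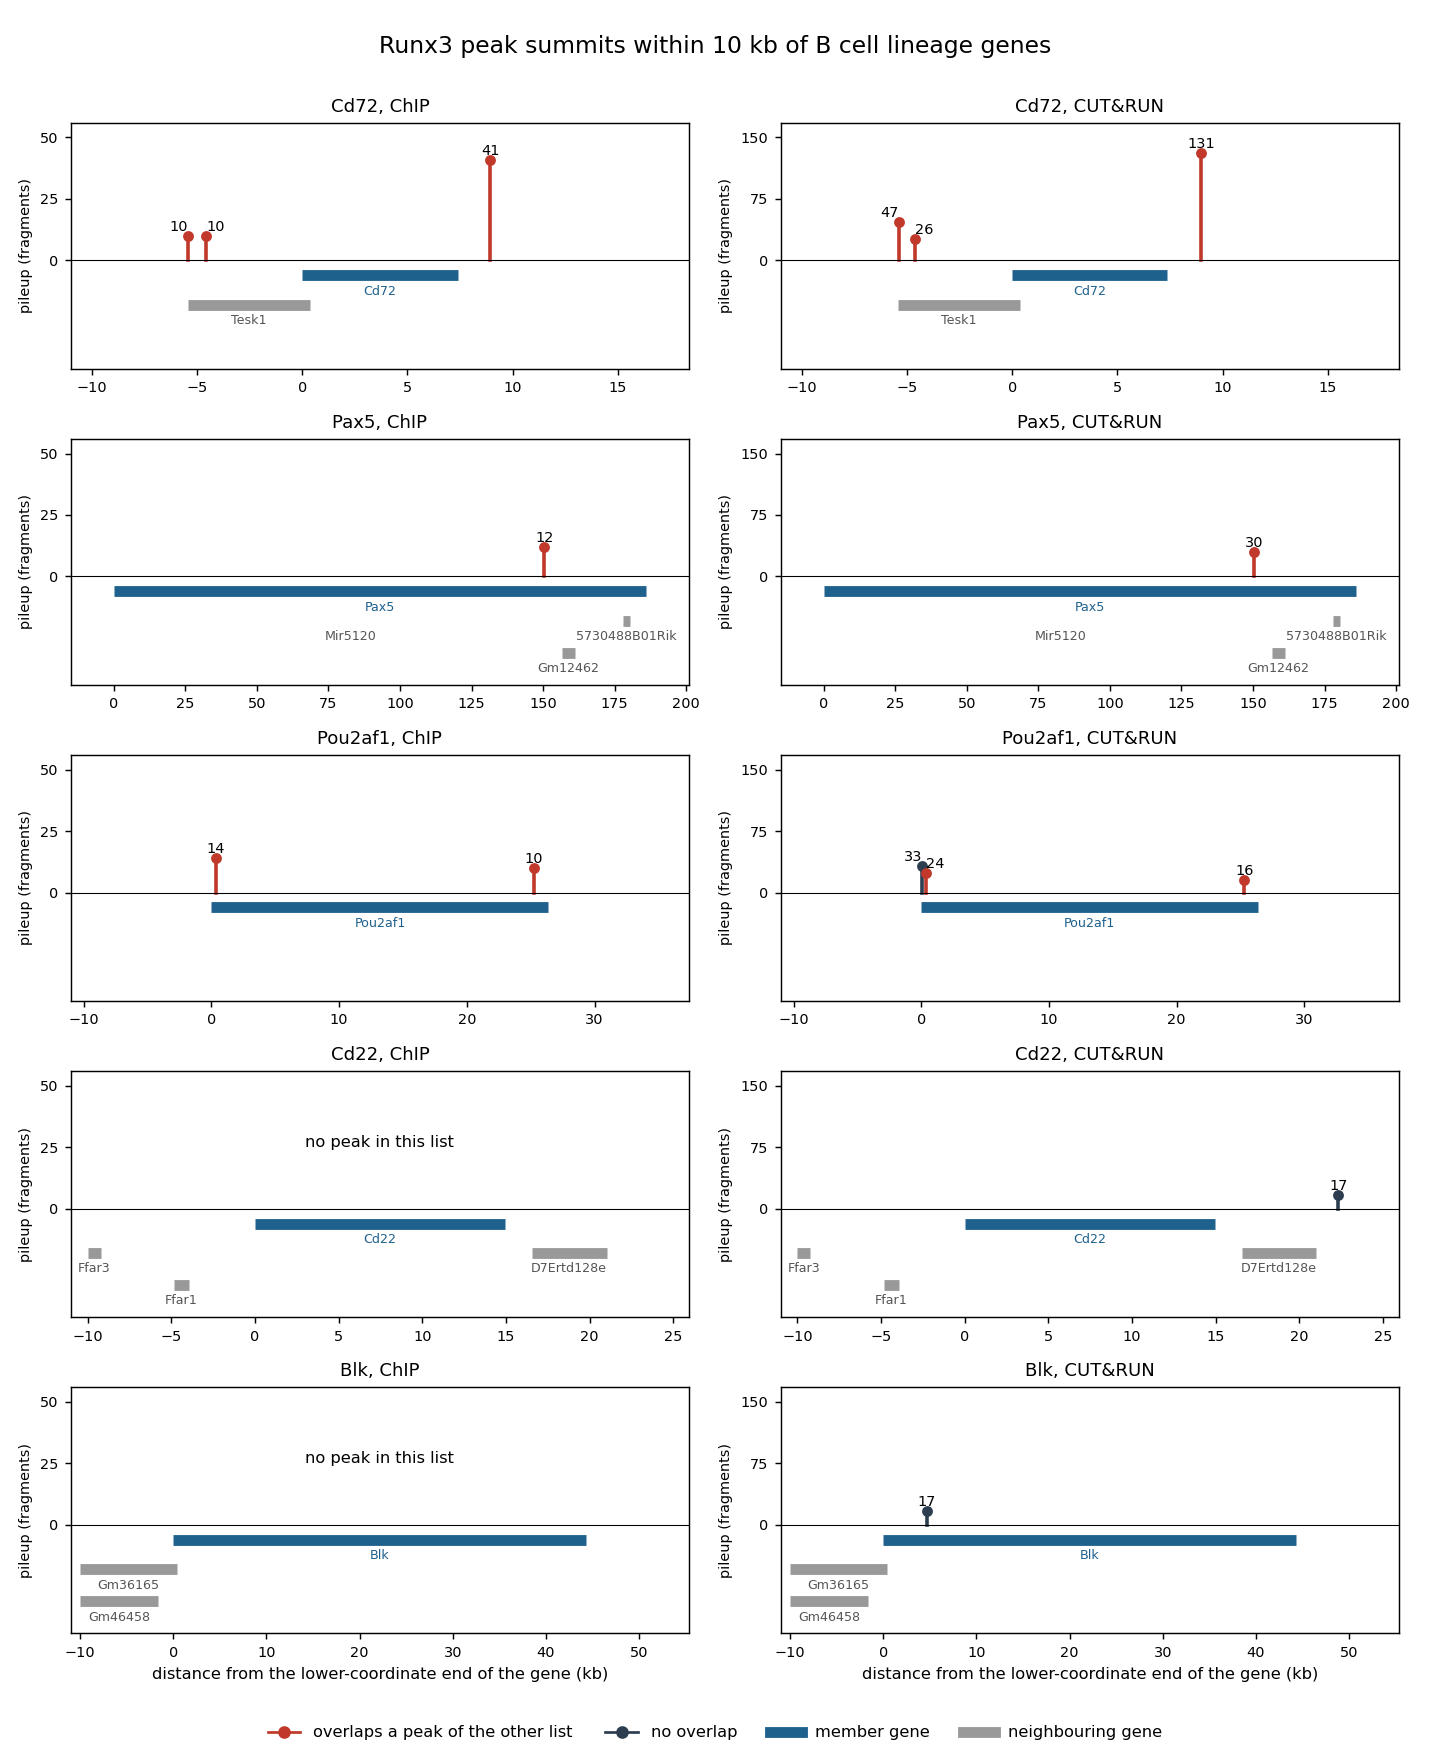
Pileup (fragments, vertical axis from 0, with its own scale for each assay) at each summit within 10 kb of the 5 genes, against distance from the lower-coordinate end of the gene (kb); bars below the line are genes, red stems are peaks that overlap a peak of the other list and dark stems are peaks that do not. Cd72 carries the tallest stems, 41 in ChIP and 131 in CUT&RUN, outside its span, while Cd22 and Blk have 1 CUT&RUN stem each and no ChIP stem.

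Cd72, which encodes an inhibitory lectin-like receptor of B cells (chromosome 4, 43447724 to 43455102, minus strand), had the strongest peak of the group in both assays. In ChIP, 41 fragments (29.4 to 55.6) covered the summit at 43456663, a fold of 19.8. In CUT&RUN, 131 fragments (110 to 155) covered the summit at 43456697, a fold of 40.4. These summits lay 34 bp apart, in the stretch before the gene, 1561 and 1595 bp outside the span and 2037 and 2071 bp upstream of the listed start. The CUT&RUN peak, 294 bp wide, lay wholly inside the ChIP peak of 603 bp. Cd72 was the nearest gene of any kind to both.

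In its list, the upstream Cd72 peak ranked 210 in ChIP (top 1.60%) and 150 in CUT&RUN (top 0.944%). Only 200 protein-coding genes (0.914%) had a better ranked ChIP peak within 10 kb, and 72 (0.329%) a better ranked CUT&RUN peak. The expected background at this peak, worked out as (pileup + 1) divided by fold, was 2.12 fragments in ChIP, equal to the list's median of 2.12. In CUT&RUN it was 3.27, above the list's median of 1.89. The CUT&RUN list was called without a control, so its background is not the same measure as that of ChIP. Every ChIP peak at the 5 genes had this same background of 2.12, so the value does not set the Cd72 peak apart.

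The other peaks in the Cd72 window belonged by position to Tesk1, which encodes a serine/threonine kinase and ends inside the Cd72 span. The first pair had summits 12 bp (ChIP, 43442289) and 50 bp (CUT&RUN, 43442327) from the Tesk1 start, with pileups of 10 (4.80 to 18.4) and 47 (34.5 to 62.5). The second pair, at 43443164 and 43443085, lay 887 and 808 bp inside Tesk1, with pileups of 10 and 26 (17.0 to 38.1). Both pairs overlapped, but they lay 4.56 to 5.44 kb outside Cd72. No summit of either list lay inside the Cd72 span itself. The 3 peaks of each list put Cd72 among the 3.35% of protein-coding genes with 3 or more overlapping ChIP peaks within 10 kb. That count rests on both Tesk1 pairs.

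Cd22, which encodes a sialic acid-binding inhibitory receptor of B cells (chromosome 7, 30865404 to 30880342, minus strand), had no ChIP peak. Its single CUT&RUN peak, at 30887720, was covered by 17 fragments (9.90 to 27.2), with a fold of 11.5, and ranked 10486 of 15891. The summit lay 7.38 kb outside Cd22, on the side where the gene starts, and closer to the non-coding gene D7Ertd128e, at 1300 bp. The nearest ChIP summit was 22.4 kb away, inside Mag, which encodes a myelin protein of the same Siglec family. Cd22 thus had no summit in its span, and its 1 peak was among the weaker ones of the list.

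Pax5, the gene of the factor that commits cells to the B lineage (chromosome 4, 44524748 to 44710694, minus strand), had 1 peak in each list. At 44675186, the ChIP summit, 12 fragments (6.20 to 21.0) gave a fold of 6.12. At 44675169, the CUT&RUN summit, 30 fragments (20.2 to 42.8) gave a fold of 17.5. They lay 17 bp apart, the closest pair of the group, and the CUT&RUN peak of 209 bp was contained in the ChIP peak of 291 bp. The site lies inside the gene, 35.5 kb downstream of its start; the gene table gives no exons, so it was not placed in an intron or exon. Non-coding Gm12462, also within Pax5, was the next gene.

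The Pax5 peaks ranked 6382 in ChIP (top 48.5%) and 5369 in CUT&RUN (top 33.8%), so they were middling in both lists. Pax5 is 186 kb long, which gives summits more room to fall in its window. Of the 678 protein-coding genes with spans of 148.8 to 232.4 kb, 44.8% had at least 1 ChIP peak and 51.3% at least 1 CUT&RUN peak. The median gene of this length had 0 ChIP peaks and 1 CUT&RUN peak. Per 100 kb of window, Pax5 had 0.486 peaks in each list and Cd72 had 10.96 in each. Pou2af1 had 4.31 in ChIP and 6.47 in CUT&RUN. The Cd72 value includes the peaks inside Tesk1, so it is not the density of peaks nearest to Cd72.

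Pou2af1, the gene of the octamer coactivator (chromosome 9, 51213690 to 51240079, plus strand), was the only 1 of the 5 with a peak across its own start. The CUT&RUN summit there, at 51213784, was 94 bp downstream of the start, with a pileup of 33 (22.7 to 46.3), a fold of 14.9 and a rank of 5805. No ChIP peak overlapped it, but the next ChIP peak began 69 bp away. That ChIP peak, with its summit at 51214030, 340 bp downstream of the start, had a pileup of 14 (7.65 to 23.5), a fold of 7.06 and a rank of 4981. It overlapped a further CUT&RUN peak with its summit at 51214075 and a pileup of 24 (15.4 to 35.7). The start of Pou2af1 thus held 2 CUT&RUN peaks and 1 ChIP peak within a stretch that the lists divided differently.

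The remaining CUT&RUN peak of Pou2af1 lay at the other end of the gene. Its summit at 51238996, 1083 bp inside the gene end, had a pileup of 16 (9.15 to 25.98), and the ChIP summit at 51238928 had 10 (4.80 to 18.4). These ranked 10836 and 9295, in the weaker part of each list. All Pou2af1 summits lay inside the gene, and no other gene lay as near to any of them. Of the 2732 protein-coding genes with spans of 21.1 to 33.0 kb, 18.0% had as many ChIP peaks and 9.22% as many CUT&RUN peaks.

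Blk, the gene of a Src family kinase of B cells (chromosome 14, 63372837 to 63417187), had no ChIP peak and 1 CUT&RUN peak. This summit, at 63377495 and 4658 bp inside the lower-coordinate end of the gene, was covered by 17 fragments (9.90 to 27.2), with a fold of 11.3 and a rank of 10737. The nearest ChIP summit was 166 kb away. Genes with a CUT&RUN peak and no ChIP peak, as Cd22 and Blk, made up 10.3% of protein-coding genes. The CUT&RUN list was called without a control. Signal of the antiserum and signal that a control serum would also give therefore cannot be told apart at these peaks. The same holds for the CUT&RUN peak across the Pou2af1 start, which no ChIP peak overlapped.

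**Figure D2:**
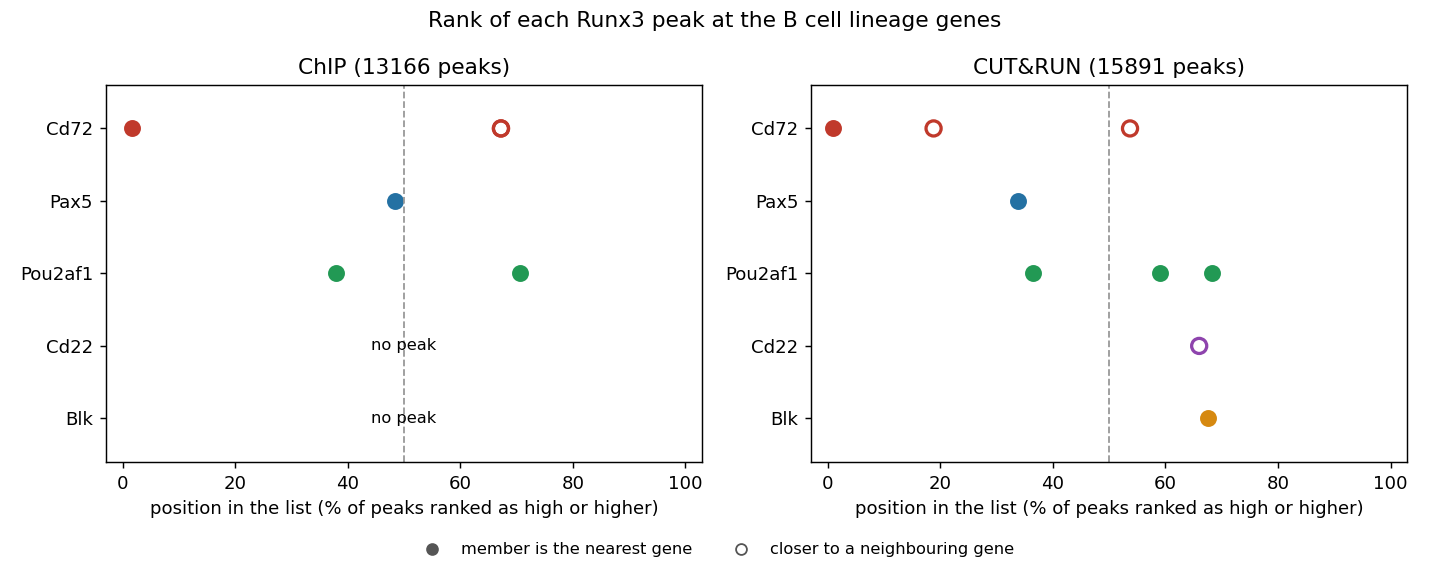
Position of each peak in its list, as the percentage of peaks ranked as high or higher (horizontal axis, 0 is the strongest), by gene; open circles are peaks closer to a neighbouring gene, and the dashed line marks the middle of the list. The upstream Cd72 peak sits at 1.60% in ChIP and 0.944% in CUT&RUN, the other peaks lie between 18.8% and 70.6%, and the open Cd72 circles in ChIP (67.2% each) coincide.

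Of the 5 genes, Cd72 had the highest-ranked peak in both lists. In ChIP, Cd72 at 1.60% was followed by Pou2af1 at 37.8% and Pax5 at 48.5%. In CUT&RUN, Cd72 at 0.944% was followed by Pax5 at 33.8%, Pou2af1 at 36.5%, Cd22 at 66.0% and Blk at 67.6%. The pileup intervals of Pou2af1 and Pax5 overlapped in both lists (14 and 12 in ChIP, 33 and 30 in CUT&RUN). Cd22 and Blk both had a CUT&RUN pileup of 17. Since the genes were picked by pileup in these lists, the lead of Cd72 is a description and was not tested.

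The most distant peak counted was that of Cd22, 7.38 kb from its gene. Just beyond the window lay a CUT&RUN summit 10.9 kb from Cd72, at 43466032, with a pileup of 13 and no ChIP overlap. The next overlapping pairs around Cd72 were at Fam166b, 19.95 and 19.97 kb away (pileups 15 in ChIP and 63 in CUT&RUN), and 3.46 kb from Sit1, the gene of a signalling adaptor of lymphocytes (the ChIP summit at 43478623, pileup 16, 23.5 kb from Cd72). Around Pax5 the next summits were 45.4 and 45.6 kb away, near the start of Zcchc7. Around Pou2af1 the nearest further summit was 161.9 kb away. Around Blk the nearest further summit was a ChIP summit 126.7 kb away inside Mtmr9.

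Other genes known mainly from B cells had peaks at a lower share than all protein-coding genes. The list, as reported here, held 19 genes of the antigen receptor, surface receptors, transcription factors, adaptors and the surrogate light chain, and was drawn up with earlier results of these data known. ChIP peaks lay at 4 of 19 (21.1%, against 40.2% of all protein-coding genes) and CUT&RUN peaks at 6 of 19 (31.6%, against 45.1%). The best peak lay nearer to a neighbouring gene in 3 of the 4 ChIP cases and 4 of the 6 CUT&RUN cases. In the median gene there was no peak in either list, as over all protein-coding genes.

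Few of the 19 genes had a peak of their own. Tnfrsf13c, the gene of the BAFF receptor, had a ChIP summit 0.390 kb outside the gene (pileup 9, 4.12 to 17.1) and a CUT&RUN summit 0.04 kb outside it (pileup 30, 20.2 to 42.8), which did not overlap. Bcl11a, a transcription factor gene of early lymphocytes, held a CUT&RUN summit inside the gene (pileup 13, 6.92 to 22.2). The best peak of each list at Cd79a, a chain of the antigen receptor complex, lay nearer to Arhgef1, and that at Cr2, the complement receptor gene, nearer to Cr1l. Fcer2a had only a ChIP peak, and Fcrla and Tnfrsf17 only a CUT&RUN peak, all nearer to neighbours. Cd79b, Ms4a1, Cd40, Siglecg, Tnfrsf13b, Ebf1, Spib, Bank1, Blnk, Btk, Vpreb1 and Igll1 had no peak in either list.

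**Figure D3:**
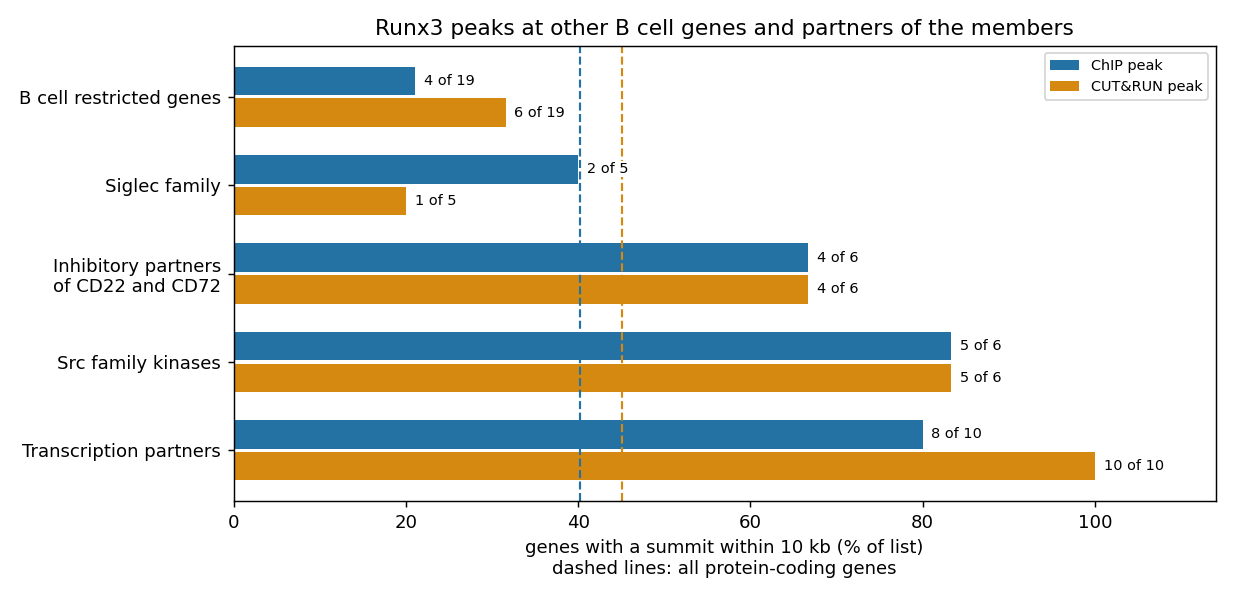
Share of each gene list with a summit within 10 kb (horizontal axis, %), for ChIP and for CUT&RUN, with counts beside the bars; dashed lines give the same shares of all protein-coding genes (40.2% and 45.1%). The genes labelled B cell restricted and the Siglec family sit below both lines, the Siglec family only just so in ChIP (40.0%). Transcription partners, Src family kinases and inhibitory partners sit above them.

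Some genes work with the 5 in B cells but are also used in T cells and other blood cells. The lists of transcription partners, Src family kinases and inhibitory partners had peaks at higher shares than all protein-coding genes (40.2% in ChIP, 45.1% in CUT&RUN). These lists too were drawn up with earlier results of these data known. Whether the shares follow use in T cells was not tested. Of 10 transcription partners, 8 had a ChIP peak and 10 a CUT&RUN peak, and 7 had an overlapping pair, as did 31.5% of all protein-coding genes. Ikzf1, the gene of Ikaros, led with a ChIP pileup of 54 at rank 58 and a CUT&RUN pileup of 151 at rank 92, with summits 1 bp apart. Pou2f2, which encodes the octamer protein OCT2 that POU2AF1 binds, had 8 ChIP and 5 CUT&RUN peaks, 4 of each overlapping, with best pileups of 31 and 99. Pou2f1, which encodes the other octamer protein OCT1, had no ChIP peak and 2 CUT&RUN peaks, the better with a pileup of 32, 0.0990 kb from the gene. Ikzf3, the gene of Aiolos, followed in ChIP with a best pileup of 28, and Foxo1, a forkhead factor gene of lymphocytes, followed in CUT&RUN with a best pileup of 80. Irf4, needed by plasma cells, had a single CUT&RUN peak (pileup 20). Spi1 had 2 peaks in each list, all overlapping, with best pileups of 12 in ChIP and 15 in CUT&RUN. Bcl6 also had 2 peaks in each list, none overlapping, with best pileups of 16 and 26.

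Src family kinases, the relatives of Blk, had peaks at 5 of 6 genes (83.3%) in both lists, and all 5 had an overlapping pair. Over all protein-coding genes, 40.2% had a ChIP peak, 45.1% a CUT&RUN peak and 31.5% an overlapping pair. The best peak lay nearer to a neighbouring gene at 2 of the 5 genes in each list. Src itself had 1 peak in each list inside the gene, with pileups of 22 and 113. Lck, the kinase of the T cell receptor, had 6 peaks in each list, 5 of each overlapping; its best pair (26 and 102) was nearer to Fam167b. Fyn had 5 ChIP and 6 CUT&RUN peaks, with best pileups of 17 and 58. Fgr had 1 ChIP and 2 CUT&RUN peaks, 1 of each overlapping, with best pileups of 19 and 28. Lyn, the kinase that phosphorylates CD22 in B cells, had no peak in either list.

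The inhibitory partners of CD22 and CD72 had peaks at 4 of 6 genes (66.7%) in both lists, against 40.2% of all protein-coding genes in ChIP and 45.1% in CUT&RUN. Inpp5d, the gene of the phosphatase SHIP-1, had best pileups of 33 in ChIP and 186 in CUT&RUN, the latter at rank 79. Sema4d, which encodes the CD72 ligand semaphorin 4D, had 9 ChIP peaks, 8 of them overlapping, and 12 CUT&RUN peaks, with best pileups of 30 and 86. Ptpn6, the gene of SHP-1, which binds the phosphorylated tails of both receptors, had 5 ChIP and 3 CUT&RUN peaks, with the best ones nearer to Emg1 and Grcc10. At Dok3, an adaptor gene, the only pair (14 and 76) lay nearer to Ddx41. Lyn and Fcgr2b had no peak. In the Siglec family of CD22, 2 of 5 genes (40.0%) had a ChIP peak, near the 40.2% of all protein-coding genes. A CUT&RUN peak lay at 1 of the 5, a lower share than the 45.1% of all. Mag had 1 ChIP peak (pileup 11) and 3 CUT&RUN peaks (best 39). Siglece had a ChIP peak of pileup 7 nearer to Klk14, and Siglecg, Cd33 and Siglec1 had none.

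Among protein-coding genes at least 1 Mb away, the genes most like each of the 5 were those with the closest numbers of ChIP, CUT&RUN and overlapping peaks, then the closest ranks of their best peaks. Cd72 was matched in counts by 118 genes, of which Cisd2 (best peaks at 0.243% and 0.887%) and Atp6v0a1 (1.96% and 2.20%) came nearest. Pou2af1 was matched by 280 genes, with Dhcr7 and Tbc1d30 nearest. Pax5 was matched by 2278 genes, with Zfp74 and Golm2 nearest. Cd22 was matched by 1812 genes, with Mrps15 and Smarca5 nearest, and Blk by 1828, with Lkaaear1 and Nt5c1b nearest. The likeness rests on 2 libraries, and apart from Cd72 and Pou2af1 the pattern was common. The counts matched for Cd72 include the peaks inside Tesk1, so its pattern rests in part on that neighbour.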

How the data were processed

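Runx3 binding in splenic CD8 T cells was taken from the 2 deposited peak lists (1 library each). The submitters' processing notes name Bowtie, MACS2 and the mm10 build, with no version for Bowtie. MACS2 was version 2.1.1.20160309, per the file headers, and kept at most 1 fragment per position, which removed 80.3% of the 48285251 ChIP fragments and 21.4% of the 17896991 CUT&RUN fragments. The q limits were 0.05 for ChIP, with the whole cell extract as control, and 1e-05 for CUT&RUN with no control, on an alignment named as nucleosome-free. The deposited pileup is a coverage signal in fragments, the deposited fold is a ratio of pileup to expected background, and the deposited p and q values are −log10 values.

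Peaks were ranked by q and then pileup within each list, and peaks that shared at least 1 bp overlapped (counts checked with bedtools 2.31.1). Gene spans came from RefSeq GRCm38.p6 (mm10), which gives no exons. In the promoter table, 1013 overlapping minus-strand windows tiled as reverse complements and 0 did not. Gene assignment was tested on simulated data. The 5 genes, the gene lists and the counts were chosen with earlier results of these data known. All 5 genes were named with every peak; of each list, genes with the best ranked peaks and those with none were named, and others were added after their values were seen. The lists were counted without 2 genes that are not reported here. Peak strength was not compared between assays. Alternatives varied the window, the nearest-gene rule, the peak threshold and the overlap rule. No test was made, since each assay had 1 library. Analyses used Python 3.11.15, pandas 2.3.3 and scipy 1.17.1.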

Additional observations from a re-analysis of the deposited data

How the results depend on the processing

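Of 34 alternative values for the 6 counts at the 5 genes, 15 stayed within 1.5 times and 19 did not. With gene spans alone, CUT&RUN peaks lay at 3 genes, and there were 3 ChIP peaks (3 overlapping) and 5 CUT&RUN peaks (3 overlapping); Cd72 and Cd22 then had none. With a window of 50 kb, there were 12 ChIP peaks (11 overlapping) and 21 CUT&RUN peaks (11 overlapping). With both lists at q of 1e-05 or less, 3 ChIP peaks were left (3 overlapping), and 3 CUT&RUN peaks overlapped one. In the stronger 0.5 of each list, CUT&RUN peaks lay at 3 genes, with 3 ChIP peaks (2 overlapping) and 4 CUT&RUN peaks (2 overlapping). When each peak had to cover at least 0.5 of the other, 2 ChIP and 2 CUT&RUN peaks counted as overlapping. The number of genes with a ChIP peak was 2 to 4 under every alternative run. Where only peaks whose nearest protein-coding gene was one of the 5 were kept, with non-coding genes ignored, 4 ChIP and 7 CUT&RUN peaks were left. A ChIP pileup of 10 has an interval of 4.80 to 18.4, so depth does not order the weaker peaks. No paired analysis was possible because each group had 1 library and no result came from a test.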
